A study of Mus musculus with 2 samples.

Results

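The genes described here are 10 genes of heat-producing brown fat, measured in RNA of the adrenal gland: Ucp1, Cidea, Elovl3, Dio2, Ppargc1a, Ppargc1b, Prdm16, Otop1, Cpt1b and Fabp3. All 10 of 10 symbols matched 1 gene each among 55536 annotated gene IDs, 22015 of them nuclear protein-coding genes. Membership was defined by a list of known thermogenic fat genes, and some were selected on their large count difference between the same 2 libraries that are compared here, so that difference is given as a description with no test. The study holds 1 group, adrenal glands of 2 adult males of the mouse strain B6CASTF1/J (described as B6 X Cast), aged 8 to 10 months. The submitters call them animal 2 (replicate 1) and animal 4 (replicate 2) and list both under the same donor entry. Neither animal is labelled with a treatment, and no source used here says how the gland was freed of the tissue around it. Both libraries were made from 300 ng of total RNA with a directional kit and ERCC spike-ins, which are synthetic RNAs of known sequence.

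Brown adipocytes burn fatty acids to make heat. Noradrenaline acts on beta-adrenergic receptors, cAMP rises, triglyceride is broken down, and the fatty acids both fuel the mitochondria and open UCP1, which lets protons flow back across the inner mitochondrial membrane without making ATP. Brown fat occurs in several depots in the mouse, among them the fat around the kidney and adrenal gland. PGC-1 coactivators and PRDM16 govern the programme, and DIO2 raises thyroid hormone inside the cell.

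Replicate 1 held 29994901 and replicate 2 held 33987434 expected counts (estimated read counts that need not be whole) on annotated genes. A count of 0 allows up to 3 counts, which is 0.101 CPM (counts scaled to library size) in replicate 1 and 0.0871 in replicate 2. All 7 markers of the adrenal cortex and all 7 of chromaffin cells, the catecholamine cells of its medulla, reached 1 TPM (an abundance corrected for transcript length and library size) in both libraries, as the tissue label has it. None of 7 kidney markers did. Each side of the comparison is 1 animal, so no p-value was computed. Folds are ratios of counts scaled with TMM factors, replicate 2 over replicate 1, followed by their exact binomial 95% interval, which covers counting error only and says nothing about differences among animals. In bulk tissue, fewer cells of a type and less RNA per cell cannot be told apart.

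Nearly all of the 10 genes were scarce in replicate 1 and better represented in replicate 2. In replicate 1 only Fabp3 reached 1 TPM, and in replicate 2 all but Elovl3 did, 9 of 10. By the other deposited quantification, in kallisto format, Cpt1b also reached 1 TPM in replicate 1, at 1.14. The median level was 0.355 TPM in replicate 1 and 5.02 in replicate 2, and the summed level was 4.73 and 178 TPM. A scaled count at least 2-fold higher in replicate 2 was found for 9 of the 10 genes, and a 2-fold lower one for none. Of the 18181 nuclear genes whose mean count was 10 or more, 5.39% were at least 2-fold higher and 4.14% at least 2-fold lower. Since this contrast helped to choose the genes, nothing is read from the count. That minimum was met by 9 of the 10, and not by Elovl3, whose mean was 9.

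**Figure D1:**
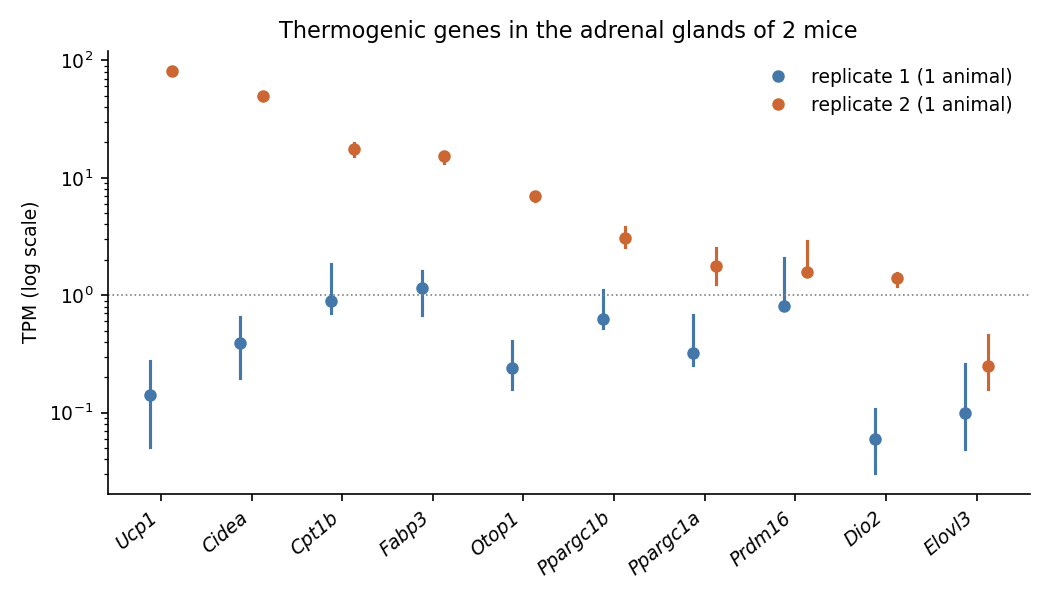
Level of each of the 10 genes in TPM (log scale), 1 point per library, with the authors' deposited credibility interval as a line and 1 TPM dotted. Ucp1 went from 0.14 TPM in replicate 1 to 80.6 in replicate 2, while the intervals of Prdm16 and Elovl3 overlapped between the libraries.

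Ucp1, the uncoupling protein that defines thermogenic fat cells, lies on chromosome 8 from 83290352 to 83298452, plus strand (positions follow mm10 and GENCODE M21, and spans include introns). It had 6 expected counts (0.14 TPM) in replicate 1 and 3727 (80.6 TPM) in replicate 2, a mean of 40.4 ± 56.9 TPM (SD, n = 2). The scaled count was 534-fold higher (245 to 1456), first in size among 14660 nuclear coding genes with at least 10 counts. By level, Ucp1 stood at position 774 of the nuclear coding genes in replicate 2 and at position 14755 in replicate 1. It made up 45.2% of the summed TPM of the 10 genes in replicate 2 but 2.96% in replicate 1. The same comparison by the other deposited quantification, in kallisto format, gave 0.113 and 63.6 TPM.

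Otop1 encodes otopetrin 1, a proton channel known as a brown fat gene and from acid sensing in taste cells (chromosome 5, 38275972 to 38304217, plus strand). It had 16 counts (0.24 TPM) in replicate 1 and 619 (6.97 TPM) in replicate 2. Its scaled count was 33.3-fold higher (20.3 to 58.6), the sixth of the coding genes compared. The paralogs Otop2 and Otop3 were listed at 0 in both libraries, which in each allows up to 3 counts, so Otop1 held all counts of this family here.

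Cidea, a protein of the lipid droplet surface abundant in brown fat, lies on chromosome 18 from 67343604 to 67367785. It had 11 counts (0.39 TPM) in replicate 1 and 1517 (49.7 TPM) in replicate 2, and was 119-fold higher (66.1 to 238), second after Ucp1. Its paralog Cidec, found in white fat droplets as well, stood at 14.7 and 150 TPM and was 8.11-fold higher (7.45 to 8.83). Cidea thus made up 2.58% of the summed TPM of its family in replicate 1 and 24.8% in replicate 2, with Cideb at 1 count in each library. A noncoding gene on the opposite strand that overlaps Cidea by 500 bases, B430212C06Rik, had 1 and 13 counts.

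Fatty acid handling was represented by 3 of the genes. Cpt1b, the muscle and brown fat form of carnitine palmitoyltransferase 1, which lets long-chain fatty acids into mitochondria, lies on chromosome 15 from 89416405 to 89425863, minus strand. It had 56 counts (0.90 TPM) in replicate 1 and 1182.2 (17.5 TPM) in replicate 2, an 18.1-fold difference (13.9 to 24.2). Its estimated count carried a posterior SD of 5.91 and 23.1 counts. The coding entry Gm44502 covers all 9459 bases of Cpt1b on the same strand and took 0 and 56.1 counts (posterior SD 34.6 in replicate 2). Fabp3, the heart-type fatty acid binding protein (chromosome 4, 130308595 to 130315463, plus strand), had 23 counts (1.14 TPM) and 335 counts (15.4 TPM), a 12.5-fold difference (8.21 to 20.0). An opposite-strand gene, Zcchc17, overlaps Fabp3 by 81 bases and was near level between the libraries, at 18.8 and 18.9 TPM.

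Elovl3, an elongase of very long fatty acids that cold strongly induces in brown fat (chromosome 19, 46131897 to 46135694), was the lowest of the 10 in replicate 2. It had 5 counts (0.10 TPM) in replicate 1 and 13 (0.25 TPM) in replicate 2. The ratio of 2.24 has an interval from 0.748 to 8.01, so no difference was detectable at this depth. In replicate 2 its TPM was 0.310% of that of Ucp1.

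Dio2, the deiodinase that turns thyroxine into active T3, lies on chromosome 12 from 90724552 to 90738438, minus strand. It had 10 counts (0.06 TPM) in replicate 1 and 240 (1.40 TPM) in replicate 2, a 20.6-fold difference (11.0 to 43.6). Its level stayed low in absolute terms, at position 12369 of the nuclear coding genes even in replicate 2. Dio3, which inactivates thyroid hormone, had 17 and 64 counts and was 3.24-fold higher (1.87 to 5.90), and Dio1 had 1 and 0 counts. A noncoding gene on the opposite strand, Gm26512, overlaps Dio2 by 238 bases and had 1 and 7 counts.

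The regulators of the programme differed by smaller folds than the genes above other than Elovl3. Ppargc1a, the PGC-1alpha coactivator of mitochondrial biogenesis (chromosome 5, 51454250 to 51567726, minus strand), had 31 counts (0.32 TPM) in replicate 1 and 144 (1.76 TPM) in replicate 2, and was 3.99-fold higher (2.69 to 6.09). Ppargc1b, its PGC-1beta relative (chromosome 18, 61298136 to 61400431), had 63 counts (0.63 TPM) and 274 (3.06 TPM), a 3.74-fold difference (2.83 to 5.0). The third member of that family, Pprc1, had 14.9 TPM in replicate 1 and 13.1 in replicate 2. Its scaled count was 0.696 times as high in replicate 2 (0.644 to 0.752). In kallisto-format TPM it stood at 10.6 and 12.4, so its direction depended on the quantification. Prdm16, a transcriptional regulator that directs cells to the brown fat fate and is also expressed elsewhere (chromosome 4, 154316125 to 154636873, minus strand), had 117 counts (0.81 TPM) and 229 (1.58 TPM). Its 1.68-fold difference (1.34 to 2.12) was the smallest fold of the 10, although the interval of Elovl3 spans it and Elovl3 differed least in log2 CPM + 1 (0.24 against 0.63). It was close to the 1.57-fold (1.29 to 1.91) of its relative Mecom. In kallisto-format TPM the ratio of Prdm16 was 1.25, and its deposited level of 0.81 TPM in replicate 1 lies just under its own credibility bounds of 0.837 to 2.07.

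**Figure D2:**
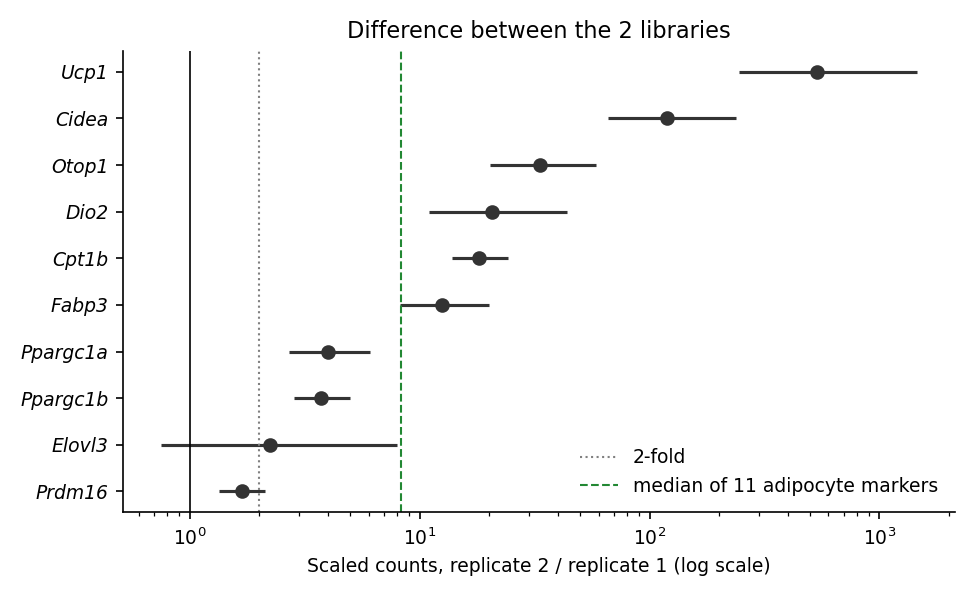
Scaled count of replicate 2 over replicate 1 for each of the 10 genes (points, log scale) with exact binomial 95% intervals that cover counting error only (lines). The 6 genes from Ucp1 (534-fold) to Fabp3 (12.5-fold) lie right of the median of 11 adipocyte markers (8.33-fold, dashed). Some of the genes were chosen by this difference, so nothing is read from that count. Elovl3 is the only gene whose interval includes 1.

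The order of the levels was better resolved in replicate 2 than in replicate 1 when neighbours were compared. By the authors' credibility intervals, 6 of the 9 neighbouring pairs in the order of replicate 2 were separate. The order ran from Ucp1 and Cidea through Cpt1b, Fabp3, Otop1, Ppargc1b, Ppargc1a, Prdm16 and Dio2 to Elovl3. Cpt1b and Fabp3 overlapped, as did Ppargc1a with Prdm16 and Prdm16 with Dio2. Further apart in the order, Prdm16 also overlapped Ppargc1b, and Dio2 overlapped Ppargc1a. In replicate 1 the order opened with Fabp3 (1.14 TPM), Cpt1b (0.90) and Prdm16 (0.81), and all 9 neighbouring pairs overlapped, although genes further apart, such as Prdm16 and Dio2, did not. Over the 2 animals the SD exceeded the mean TPM for 6 of the 10 genes, so the order of the mean levels says little.

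Promoter sequence is given as a description only, because being high in the same library helped to choose some of the genes. Shared control of the genes was not tested. RefSeq promoter windows of 6 of the 10 genes were searched (Ucp1, Dio2, Ppargc1a, Prdm16, Otop1 and Fabp3; build GRCm38.p6, the assembly of mm10). Windows of Cidea, Elovl3, Ppargc1b and Cpt1b were not searched. The motif counts therefore hold for these 6 genes only, and whether the unsearched genes carry the motifs was not tested. The 250 bases before the RefSeq start were searched on both strands for the cAMP response element TGACGTCA, its half-site TGACG (which the full element contains), the nuclear receptor half-site AGGTCA and the TATA box TATAAA. The printed windows are those of the gene with the largest difference and of the only one of these 6 with the full cAMP element. The last is that of a coactivator with a half-site near its start. Capitals mark the matches, and each sequence runs 5′ to 3′ on the strand of its gene.
Ucp1, chr8:83290098-83290347, plus strand: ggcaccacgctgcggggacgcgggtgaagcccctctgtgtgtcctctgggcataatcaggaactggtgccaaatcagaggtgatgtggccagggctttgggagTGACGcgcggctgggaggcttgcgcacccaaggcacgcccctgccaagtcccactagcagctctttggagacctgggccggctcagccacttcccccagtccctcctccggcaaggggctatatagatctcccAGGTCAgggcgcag
Dio2, chr12:90739039-90739288, minus strand: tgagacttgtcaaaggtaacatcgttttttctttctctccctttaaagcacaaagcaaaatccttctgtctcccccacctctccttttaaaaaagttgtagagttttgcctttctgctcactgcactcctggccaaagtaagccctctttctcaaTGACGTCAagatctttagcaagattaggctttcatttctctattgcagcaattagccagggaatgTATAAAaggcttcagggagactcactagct
Ppargc1a, chr5:51567726-51567975, minus strand: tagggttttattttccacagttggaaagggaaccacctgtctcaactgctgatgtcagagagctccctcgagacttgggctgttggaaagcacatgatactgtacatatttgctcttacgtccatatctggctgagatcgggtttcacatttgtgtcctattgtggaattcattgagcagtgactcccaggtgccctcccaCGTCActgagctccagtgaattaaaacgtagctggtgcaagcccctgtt

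The window of Dio2 held the full element from 95 to 88 bases before the start and a TATA box from 30 to 25 bases before it. The full element occurs in 1.55% and that TATA box in 12.4% of all 32851 windows of the table. The half-site TGACG occurred in 4 of the 6 genes (Ucp1, Dio2, Ppargc1a and Fabp3), against 17.8% of all windows, and AGGTCA in Ucp1 alone, against 14.0%. For Ucp1 the half-site lies 147 to 143 bases and AGGTCA 14 to 9 bases before the start. The windows of Prdm16 and Otop1 held none of the 4 motifs. A match describes letters and is no evidence of binding. The windows are those of the reference assembly, and the own sequence of these B6 X Cast animals was not searched. For Dio2 the RefSeq start lies 600 bases from the GENCODE start, and the window of Ppargc1a belongs to the upstream of its 2 clusters of starts, described next.

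At the transcript level, 4 of the 10 genes have 1 annotated transcript (Ucp1, Cidea, Dio2 and Fabp3), and the 10 genes together have 35. Ppargc1a transcripts begin in 2 clusters 13.8 kb apart. Transcripts of the downstream cluster took 24.7 of the 31 counts (79.7%) in replicate 1 and 122.8 of 144 (85.3%) in replicate 2, and those of the upstream cluster took 6.29 and 21.2 counts. By the kallisto-format tables the downstream share of counts was 63.6% and 81.2%. Both quantifications put most counts on the downstream start in both animals. In TPM, which weighs short transcripts up, they disagreed on the lead. The RSEM-format table gave the upstream cluster 0.10 and 0.75 TPM and the downstream cluster 0.23 and 1.01, whereas the kallisto-format table gave the upstream cluster 0.151 and 0.878 TPM and the downstream cluster 0.133 and 0.741. Which start leads per molecule is therefore unresolved. Among its single transcripts the largest count in replicate 2 was that of the 6464-base coding form Ppargc1a-203, with 11.8 counts in replicate 1 (posterior SD 3.03) and 72.7 in replicate 2 (posterior SD 7.55).

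In replicate 2 most Otop1 counts were assigned to a transcript without an annotated coding sequence. Otop1-203, annotated as a processed transcript, took 0 of 16 counts in replicate 1 and 514.9 of 619 in replicate 2 (80.4% of the gene's TPM), while the coding Otop1-202 took 8.37 and 64.6. They share the start at 38277404 and have 6 and 7 exons. In replicate 2 their posterior means lay closer, at 373.6 and 161.9 counts. Posterior SDs of 131 and 126 counts span much of that gap, although the kallisto-format table gave the same order, with 508.7 and 2.79 counts. The split between coding and noncoding Otop1 is therefore uncertain, whereas the gene's total is not (posterior SD 0 in both libraries). Another processed transcript, Otop1-204, took 7.63 counts in replicate 1 and 39.5 in replicate 2. Processed transcripts together held 58.3% of the gene's TPM in replicate 1 and 89.8% in replicate 2, so no switch between the animals is read from this.

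Transcript shares of the other regulators were also poorly resolved. Ppargc1b-202 had 98.3% of its gene's TPM in replicate 1 and 68.6% in replicate 2 in the RSEM-format table, but 79.9% and 36.0% in the kallisto-format table. Prdm16 has 13 annotated transcripts, and the leading one differed between the libraries. By expected counts it was Prdm16-204 in replicate 1, with 59.7 (posterior mean 28.7, posterior SD 16.8). In replicate 2 it was Prdm16-206, with 115 (posterior mean 36.5, posterior SD 29.1). By posterior mean Prdm16-202 led in replicate 2, at 44.2 counts (posterior SD 30.75). The full-length forms of Prdm16 share most of their sequence, and no difference in their use can be read from these values. Cpt1b-201, the 19-exon coding form, led its gene in both libraries, with 74.4% and 77.4% of the TPM in the RSEM-format table. In the kallisto-format table it also led, but with 53.0% and 65.3%.

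**Figure D3:**
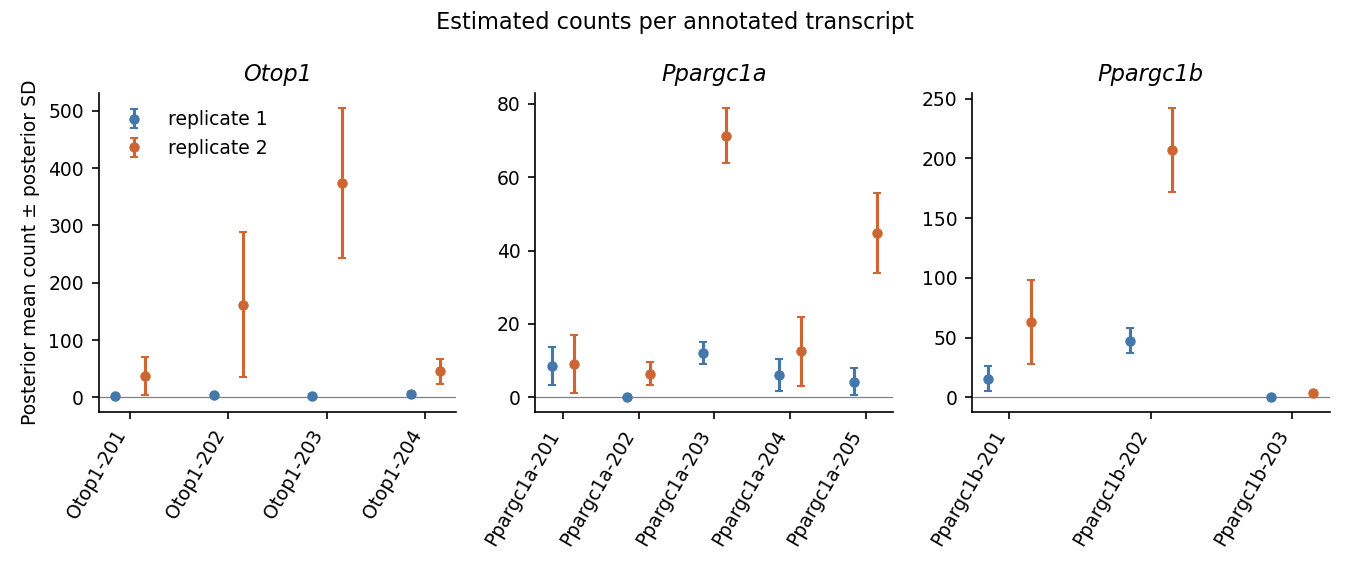
Posterior mean count of each annotated transcript of Otop1, Ppargc1a and Ppargc1b in replicate 1 and replicate 2, with the deposited posterior SD as error bars (an estimate of read assignment error, not of animal variation). For Otop1 in replicate 2 the bars of the coding form Otop1-202 (posterior SD 126) and the noncoding form Otop1-203 (posterior SD 131) are wide and overlap.

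Several widely expressed paralogs of the thermogenic genes had like levels in both animals. Ucp2 stood at 121 TPM in replicate 1 and 119 in replicate 2 (0.872 times by scaled counts, 0.836 to 0.910), and Ucp1 passed from 0.105% to 37.3% of the family's summed TPM. Ucp3, an uncoupling protein of muscle and brown fat, stood at 1.77 and 6.60 TPM and was 4.04-fold higher (3.23 to 5.09). The brain-enriched carriers Slc25a14 (7.15 and 6.29 TPM) and Slc25a27 (3.33 and 3.70 TPM) had intervals that included equality. Cpt1a, the liver-type isoform, stood at 96.8 and 94.7 TPM and Cpt1c, the brain isoform, at 9.03 and 10.6, so that Cpt1b made up 0.843% of Cpt1 TPM in replicate 1 and 14.2% in replicate 2. Even in replicate 2, Cpt1a was the most abundant of the 3.

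Members of the fatty acid binding protein family differed in both directions. Fabp4, the adipocyte form, went from 62.1 to 572 TPM, an 8.23-fold difference (7.81 to 8.68), and Fabp5, the epidermal form, from 4.92 to 18.5 TPM (3.39-fold, 2.80 to 4.12). Fabp3 was 1.63% and 2.54% of the family's TPM. Fabp1, the liver form, had 11 and 0 counts, Fabp7 had 16 and 10, and Fabp2, Fabp6, Fabp9 and Fabp12 had at most 2 in a library. Beside Elovl3, all 6 other elongases were lower in replicate 2 under each of the 4 scalings. With TMM, 9432 of all 18181 genes that met the minimum count were higher in replicate 2. Elovl5, the most abundant, stood at 210 and 183 TPM (0.760 times, 0.743 to 0.778), Elovl1 at 32.9 and 27.4 (0.732), Elovl6 at 18.4 and 14.0 (0.682), Elovl7 at 2.03 and 1.02 (0.533), Elovl4 at 0.65 and 0.38 (0.727) and Elovl2 at 0.35 and 0.19 (0.502). The interval of Elovl4 alone among these 6 included equality (0.443 to 1.19).

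Of 10 other genes known from brown fat, 6 reached 1 TPM in both animals. Of the 10, 6 were at least 2-fold higher and none at least 2-fold lower among the 8 that met the minimum count, whose median fold was 5.10, against 1.01 for all 18181 genes, of which 5.39% were at least 2-fold higher. Cox8b and Cox7a1, respiratory chain subunits of heart, muscle and brown fat, stood at 16.2 and 102 TPM (5.80-fold, 4.77 to 7.10) and at 10.1 and 48.6 TPM (4.41-fold, 3.49 to 5.63). Unlike Ucp1, both were well above 1 TPM in replicate 1. Ebf2, a factor of brown fat precursors, was 8.82-fold higher (6.20 to 12.9; 0.33 and 2.81 TPM). Pdk4, which spares glucose from oxidation, was 7.62-fold higher (4.33 and 30.8 TPM) and the lipid droplet protein Plin5 2.45-fold (4.56 and 12.1 TPM), whereas the nucleoside transporter Slc29a1 stood at 51.8 and 53.8 TPM.

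Markers that set brown fat depots and beige cells apart had few counts or intervals that included equality, other than Shox2. Lhx8 and Zic1, developmental genes of interscapular brown fat, had 3 and 2 counts and 0 and 1 counts, at or under the limit of 3 counts, so no fold is given (both were singled out after their values were seen). Of 6 genes described as beige cell markers 4 met the minimum count and none of these was at least 2-fold higher, which for so few genes is near the 5.39% of all genes. Cited1 stood at 30.2 and 32.9 TPM, Tmem26 at 2.51 and 2.47, and Hoxc9 at 0.24 and 0.34, each with an interval that included equality. Shox2, at 1.49 and 0.79 TPM, had 0.451 times the scaled count (0.304 to 0.660).

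Signalling upstream of heat production differed at the receptor end. Adrb3, the beta-3 adrenergic receptor of adipocytes, stood at 1.29 TPM in replicate 1 and 15.6 in replicate 2 and was 9.08-fold higher (7.36 to 11.3). Adrb1 had 18 and 99 counts (4.73-fold, 2.84 to 8.31; named after its value was seen), and Pde3b, the phosphodiesterase through which insulin restrains lipolysis, was 4.33-fold higher (3.84 to 4.90). These were the 3 of 10 listed genes at least 2-fold higher, against 5.39% of all genes. Shared parts of the cascade had scaled counts between 0.864 and 1.15 times those of replicate 1, with the G protein gene Gnas at 851 and 842 TPM, Prkar2b at 164 and 141, Prkaca at 78.4 and 97.4 and Adcy3 at 13.1 and 15.0.

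Among 19 transcription factors and cofactors of the programme outside the 10 genes, 18 met the minimum count. Of these, 5 were at least 2-fold higher in replicate 2 and none at least 2-fold lower, against 5.39% and 4.14% of all genes. Cebpa was 7.91-fold higher (7.03 to 8.92; 4.57 and 39.3 TPM), Pparg, the master regulator of adipocytes, 6.54-fold (5.41 to 7.95; 2.84 and 18.3 TPM) and Ppara, which drives fatty acid oxidation genes, 2.48-fold (2.09 to 2.95; 2.11 and 7.21 TPM). The other 2, Rxrg and Irf4, had 4 and 57 and 14 and 46 counts. The most abundant of the list moved little or the other way: Nrip1 stood at 36.1 and 40.7 TPM, Thra at 30.5 and 41.3, Atf2 at 28.2 and 33.6, and Cebpb at 54.5 and 40.4 (0.685 times, 0.642 to 0.730).

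Genes of fuel supply were listed under lipolysis, fatty acid uptake and oxidation. Of 9 lipolysis genes, a list that includes droplet and fatty acid binding proteins, 7 were at least 2-fold higher, against 5.39% of all genes. Among them Plin1, Cidec and Fabp4 are also counted as adipocyte markers below. Abhd5 (1.24-fold) and G0s2 (1.92-fold) stayed under 2-fold. The fat lipase Pnpla2 stood at 63.0 and 165 TPM (2.46-fold, 2.36 to 2.57), the hormone-sensitive lipase Lipe at 36.3 and 108 (2.53-fold) and Mgll at 26.7 and 61.4 (2.06-fold), and Plin1, which coats the fat droplet, was 3.37-fold higher (3.23 to 3.52). Fatty acid uptake had 4 of 10 genes at least 2-fold higher, against the same 5.39%. These were Lpl, the lipoprotein lipase (8.33-fold, 7.99 to 8.69), Cd36 (4.65-fold), Acsl1 (3.77-fold) and glycerol kinase Gk (2.12-fold). The transporter Slc27a1 was 1.54-fold higher.

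Genes of the mitochondrial carnitine shuttle and beta-oxidation exceeded 1 TPM in both animals. None of the 16 was 2-fold apart, which for so few genes is near the shares of all genes (5.39% higher and 4.14% lower). Their median fold was 1.26 over levels of 7.91 to 171 TPM in replicate 1. Hadhb stood at 171 and 224 TPM (1.26-fold), Acadm at 145 and 212 (1.32-fold), Acaa2 at 144 and 210 (1.43-fold) and Hadh at 134 and 171 (1.18-fold). In all, 14 of the 16 were higher in replicate 2, or 15 when scaled to totals or spike-ins, where Hadha changed sides. Of all 18181 genes that met the minimum count, 9432 were higher in replicate 2 with TMM. Cpt1b, at 18.1-fold, lay outside the range of these 16 genes, which ran from 0.921 (Cpt1a) to 1.55 (Etfb).

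Heat can also be made without UCP1, by creatine or calcium cycling. Of 10 genes listed for heat without UCP1, which include Pm20d1 from outside these cycles, 9 met the minimum count. None of them was at least 2-fold higher and 1 was at least 2-fold lower. For a list of this size these shares are near the 5.39% and 4.14% of all genes. The lower one was the calcium channel gene Ryr2 (18.7 and 9.94 TPM, 0.446 times, 0.424 to 0.469). Gamt, which makes creatine, stood at 73.1 and 88.5 TPM, and Gatm, the enzyme before it (named after its value was seen), at 2.09 and 4.02 (1.87-fold, 1.5 to 2.35). The creatine transporter Slc6a8 stood at 70.1 and 61.2, Alpl at 65.0 and 59.2 and the calcium pump gene Atp2a2 at 71.2 and 74.9. Of 8 genes for secreted factors known from brown fat, Nrg4 was 5.32-fold higher (4.02 to 7.15; 1.28 and 7.17 TPM). Vegfa stood at 296 and 200 TPM (0.643 times), Cxcl14 at 23.8 and 25.5, Angptl4 at 16.9 and 29.1 (1.55-fold), and Fgf21 had 0 and 2 counts.

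**Figure D4:**
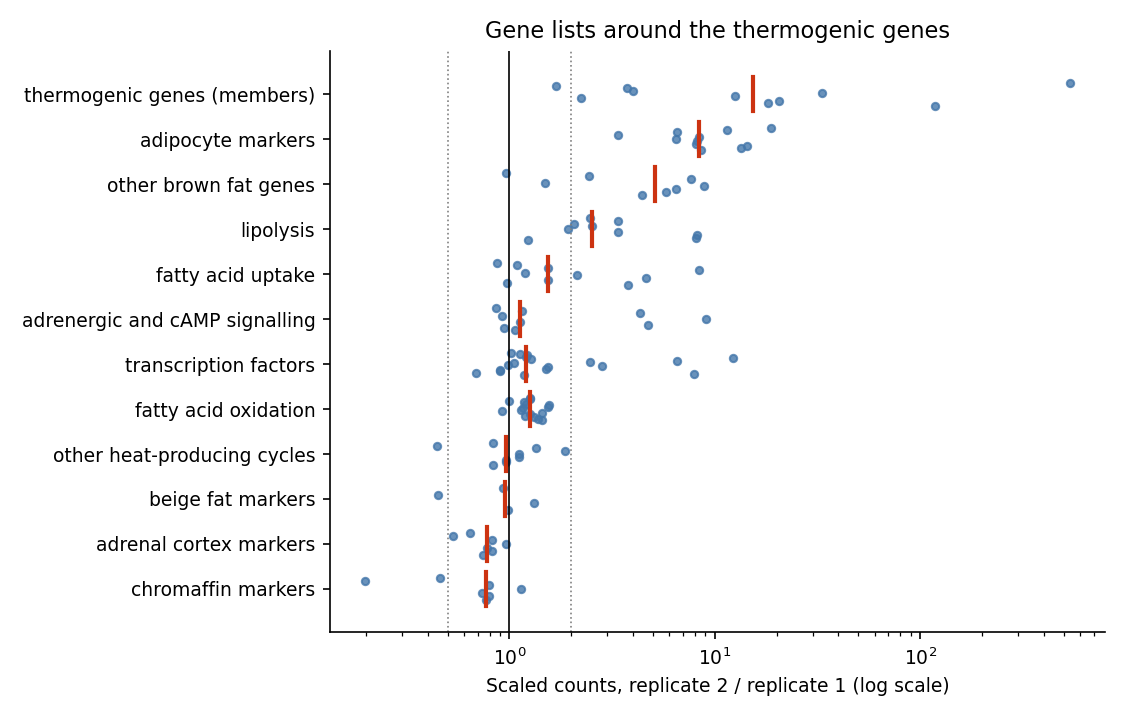
Scaled count of replicate 2 over replicate 1 (log scale) for genes of 12 lists; points are genes with 10 or more counts on average (for the thermogenic genes all 10), red bars list medians, dotted lines 2-fold in each direction. Adipocyte markers lie between 3.37-fold and 18.8-fold, whereas fatty acid oxidation genes have a median of 1.26.

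Markers of fat cells in general were higher in the same library. All 11 adipocyte markers reached 1 TPM in both libraries and exceeded 2-fold in favour of replicate 2, against 5.39% of all genes. Their summed levels were 264 and 2375 TPM, with a median fold of 8.33 and a range from 3.37 (Plin1) to 18.8 (Thrsp). Of these 11, Plin1, Fabp4, Cidec, Lpl and Pparg also stand in the lists above. The part of adipocyte number in the differences of the thermogenic genes was not tested. Set against Adipoq, the adiponectin gene (18.9 and 175 TPM), Ucp1 stood at 0.741 TPM per 100 TPM of Adipoq in replicate 1 and 46.0 in replicate 2, and Cidea at 2.06 and 28.4. For Ppargc1a that ratio was 1.69 and 1.00, and for Prdm16 4.29 and 0.902. On the log2 scale the fold lay above the adipocyte median for 6 of the 10 genes, by 6.0 for Ucp1, 3.83 for Cidea and 2.00 for Otop1, and below it for Ppargc1a, Ppargc1b, Elovl3 and Prdm16, by up to -2.31. The interval of Fabp3 (8.21 to 20.0) includes the adipocyte median. By fold, Fabp3, the lowest of these 6, was at position 41 of 14660 nuclear coding genes. Since this difference helped to choose some of the genes, nothing is read from the count of 6.

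Cpt1b and Fabp3 are also expressed in muscle, so muscle markers are given beside them. The summed level of 8 skeletal muscle markers was 2.75 and 4.52 TPM, with Ckm, Myh4 and Myod1 at 0 counts in both libraries, and that of 7 cardiac markers 2.88 and 3.21 TPM, with Actc1 at 0. Acta1, a skeletal muscle actin, had 22 and 67 counts (2.62-fold, 1.60 to 4.45). The 7 kidney markers summed to 0.49 and 1.87 TPM, with Umod and Slc12a1 at 0. The 7 macrophage markers were all higher in replicate 2, by 1.10 to 1.79 times, against 9432 of all 18181 genes higher. Their sums were 202 and 325 TPM. The 7 cortex markers summed to 21459 and 18099 TPM and the 7 chromaffin markers to 3134 and 2239, among them Th at 0.459 and Pnmt, the adrenaline-making enzyme, at 0.198 times the scaled count of replicate 1, with Hsd3b1 the one cortex marker on the higher side when scaled to spike-ins. Their part in the results was not tested.

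On the log2 ratio of CPM + 1, a scale that compresses differences of scarce genes, the median of the 10 genes was 2.58. The nuclear coding genes with a mean of 100 or more closest to it, over 2 libraries only, were Slc1a3 (2.58), Slc1a5 (2.58), Slc7a10 (2.57), S100b (2.57) and Bche (2.60). Slc1a5, a glutamine transporter, was the most abundant of these, at 13.2 TPM in replicate 1 and 75.0 in replicate 2.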

How the data were processed

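Total RNA of adrenal glands of 2 mice was sequenced, 1 library each. The deposited gene and transcript tables hold expected counts (estimated, not normalized) and TPM under the column names RSEM writes, per the file headers. Further transcript tables under kallisto's column names hold estimated counts and TPM, per the file headers. The deposited IsoPct column is the percent of a gene's TPM that a transcript takes. The authors also deposited never-negative signal columns, the posterior SD of each count and credibility bounds of TPM, per the file headers. Accompanying text names mm10 with GENCODE M21, whose annotation gave the symbols of the deposited gene IDs. The sources used here give neither tool versions nor whether counting used strand.

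ERCC entries (0.243% and 0.237% of counts), phiX and entries named by a bare number stayed out of library sizes. Counts were rounded for TMM (edgeR 4.0.16, R 4.3.3) and folds. Intervals are exact conditional binomial (SciPy 1.17.1); the fold script was tested on simulated data. DESeq2 1.42.0 size factors, totals and spike-ins were alternative scalings. Kallisto-format values were summed by gene.

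The 10 genes and all lists (185 entries, all matched) were chosen with earlier results of these data known. Named were the 10 genes, the 4 highest by mean TPM of each pathway list, its genes at least 2-fold apart with a mean of at least 100 counts, every paralog, and the 5 coding genes closest to the median log2 ratio; marker lists are mostly given by sums and ranges. No label or header gave a batch.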

Additional observations from a re-analysis of the deposited data

How the results depend on the processing

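No paired analysis was possible because the labels give 1 group of 2 animals. The 10 log2 ratios stayed above 0 under all 7 alternatives (70 of 70 values), and 9 of 10 genes were at least 2-fold higher with DESeq2 size factors, totals, spike-ins or the kallisto-format tables; at a mean of at least 100 counts it was 7 of 8. The median log2 ratio of 2.58 depended on the added constant, being 3.75 with CPM + 0.1, 1.26 with CPM + 5 and 3.44 with TPM + 0.1. The share of all genes at least 2-fold higher was 2.40% with at least 100 counts and 7.61% with no filter. The median TPM of the 10 genes, 2.69 over both animals, was 0.355 to 5.02 with 1 animal left out and 7.06 with TPM rescaled to nuclear coding genes. Spike-in scaling shifted the log2 ratios up by 0.07, the most of the scalings. In replicate 1, 6 of the 10 genes had under 25 counts, which limits their folds.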
